A study of Homo sapiens with 5 samples.

Results

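The genes described here encode 4 families of pre-mRNA splicing factors, and the question was where the TFs Fra-1, MYC and E2F1 were bound at their promoters in metastatic breast cancer cells. All protein-coding genes on chromosomes 1 to 22 and X whose symbols begin with SRSF, HNRNP, SNRP or SF3 were taken, which gave 57 of 20098 genes. Of these, 12 are SRSF, 24 HNRNP, 12 SNRP and 9 SF3 genes, and 1 readthrough gene, HNRNPUL2-BSCL2, was left out. The rule used symbols only and no measured value.

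ChIP-Seq was done in MDA-MB-231 LM2 cells, a derivative of the human breast cancer line MDA-MB-231 that spreads to the lung. The legend of the paper's knockdown blots links ChIP-Seq to LM2 cells with a control vector or an shRNA. Chromatin from cells fixed with 1% formaldehyde for 15 min was precipitated with an antibody against Fra-1 (also called FOSL1), c-Myc or E2F1. There was 1 library per factor and 1 input library shared by all 3, so there is no replicate spread, and every interval below covers counting error only. Intervals of fold enrichment cover the ChIP count at the summit and leave out the error of the input background, so they are too narrow. After filtering, 12931227 tags remained in the Fra-1 library, 23853621 in the MYC library and 18056168 in the E2F1 library, against 10758036 in the input. The deposited lists hold 17320 Fra-1, 4867 MYC and 36933 E2F1 peaks. An EZH2 library belongs to the series, but no peak list of it was used, and the fourth TF of the study is not analysed here. Binding was measured in LM2 cells only, so the lists do not show whether it differs from other cells.

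Splicing removes introns in the spliceosome, which assembles from small nuclear ribonucleoproteins (snRNPs) around the splice sites and the branch point. SNRP genes encode the Sm proteins that form a ring on the snRNAs of most snRNPs, and proteins particular to the U1 and U2 snRNPs, while SF3 genes encode the SF3a and SF3b subunits of the U2 snRNP. SR proteins, encoded by the SRSF genes, mostly promote the use of nearby splice sites from exonic enhancers, and hnRNP proteins often oppose them. MYC and its partner MAX bind the E-box, E2F1 is a cell cycle factor that binds sites such as TTTCCCGC, and Fra-1 with a JUN protein binds AP-1 sites.

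A promoter peak is a peak that overlaps, by at least 1 bp, the window from 2 kb upstream to 2.5 kb downstream of any annotated transcription start site (TSS) of the gene. The strongest promoter peak is the one with the largest fold enrichment, the ratio of the fragment pileup at its summit to the local input background. Strongest and weakest refer to this ratio throughout. An order by pileup alone can differ, because the local background varies from peak to peak. Sequences at summits of strongest promoter peaks are shown first, because the factors' own motifs were found at few of them. All are read 5′ to 3′ on the strand of the gene from the hg19 (GRCh37) genome. In the first set, capitals mark the AP-1 motif in both member promoters with a Fra-1 peak that held it, SF3A2 (chr19:2236745-2236771, plus strand) and SRSF9 (chr12:120912631-120912657, minus strand), and the last line is the summit of the strongest Fra-1 peak, at SF3B3 (chr16:70611326-70611354, plus strand), where TGACTCA and TGAGTCA were absent within 50 bp.
SF3A2, Fra-1: cgggaccctcTGACTCAcgccgctggg
SRSF9, Fra-1: cgtttcccagTGACTCAttccatagct
SF3B3, Fra-1: tgaatcaacgccttggcagagttttccag

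In the second set, capitals mark the E-box CACGTG. HNRNPL (chr19:39342567-39342592, minus strand) and HNRNPH3 (chr10:70091390-70091415, plus strand) held it at their strongest MYC summit. HNRNPAB (chr5:177631514-177631542, plus strand), with the strongest MYC peak of all splicing factor genes, held none within 50 bp.
HNRNPL, MYC: tcacgcgggcCACGTGcttcagacgc
HNRNPH3, MYC: ccggtcgaacCACGTGgggccctttc
HNRNPAB, MYC: cgccacgagtcggcattgtcaggcggcgg

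In the third set, capitals mark the E2F motif, which was searched as TTTCCCGC, TTTGGCGC, TTTCGCGC and TTTGCCGC on both strands. SNRPB (chr20:2451400-2451427, minus strand) had the strongest E2F1 peak and holds the reverse complement of the first of these. SRSF1 (chr17:56085005-56085032, minus strand) holds it in the forward direction, and SNRPD3 (chr22:24951947-24951975, plus strand) had the strongest E2F1 peak without it.
SNRPB, E2F1: ggtagcggcgGCGGGAAAtcggctgtgg
SRSF1, E2F1: tccgagactcTTTCCCGCcaaaggccgt
SNRPD3, E2F1: ttctgggtgttaggcccgccattcgcttg

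The SNRPD3 promoter also held the AP-1 letters, in capitals below, 13 bp from its E2F1 summit (chr22:24951964-24951990, plus strand), although it had no Fra-1 promoter peak.
SNRPD3, AP-1 letters: gccattcgctTGACTCAcgccttcgcc

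E2F1 was bound at the promoters of nearly all of these genes. An E2F1 promoter peak was found at 51 of 57 splicing factor genes, or 89.5% (95% Wilson interval 78.9 to 95.1%), against 61.3% of all protein-coding genes. By family it was found at 11 of 12 SRSF, 20 of 24 HNRNP, 11 of 12 SNRP and 9 of 9 SF3 genes. The peaks were also strong: the median fold enrichment of the strongest peak was 35.4 (quartiles 29.3 and 44.3) over the 51 genes and 22 (13.3 and 32.4) over 12269 other protein-coding genes with a peak. The lowest value, 20.2 at SRSF8, was near the median of the other genes. Peaks were wide as well, with a median of 1173 bp against 614 bp.

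MYC was bound at most of them. A MYC promoter peak was found at 33 of 57 genes, or 57.9% (45.0 to 69.8%), against 17.8% of all protein-coding genes. It was found at 9 of 12 SNRP, 13 of 24 HNRNP, 5 of 9 SF3 and 6 of 12 SRSF genes. The intervals of the 4 families overlap, so no order among them can be read from these counts. The median fold enrichment of the strongest MYC peak was 8.17 (6.95 and 10.9), and 7.19 (6.0 and 8.97) over 3554 other genes.

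Fra-1 was found at fewer promoters. A Fra-1 promoter peak was found at 13 of 57 genes, or 22.8% (13.8 to 35.2%), against 13.2% of all protein-coding genes. By family the counts were 5 of 24 HNRNP, 3 of 12 SNRP, 3 of 9 SF3 and 2 of 12 SRSF genes. The interval begins just above the share of all genes, and with each list reduced to 4867 peaks only the Fra-1 peak of SF3A2 was left and the direction turned, to 1.75% of splicing factor genes against 3.42% of the others. The median fold enrichment was 6.70 (5.49 and 10.6), below the 8.39 (6.45 and 11.7) of 2649 other genes with a Fra-1 peak, but the quartiles overlap. The median scaled pileup at the summit was near that of the other genes, at 18 against 19.

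**Figure D1:**
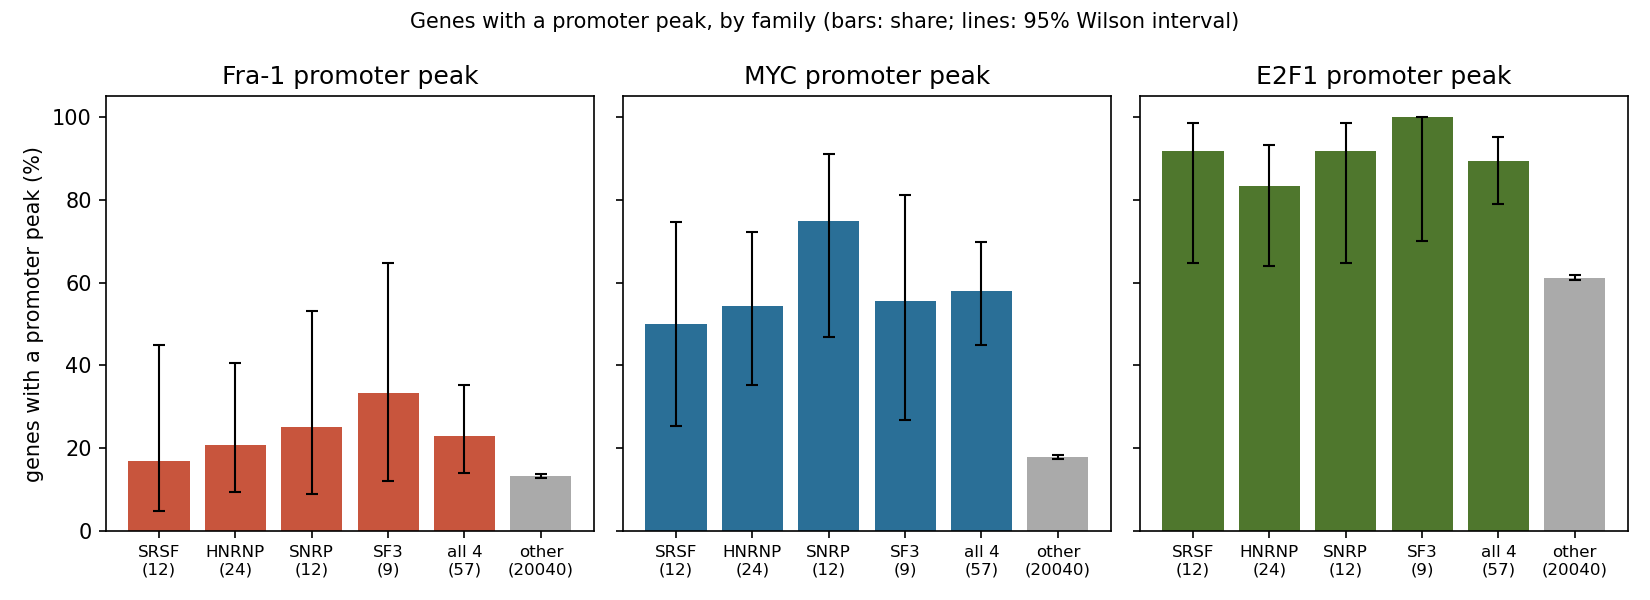
Share of genes (%) with a promoter peak of Fra-1, MYC and E2F1 in the 4 splicing factor families, in all 57 of their genes and in the 20040 other protein-coding genes (grey), with the number of genes under each bar and lines for the 95% Wilson interval. The E2F1 share was 89.5% against 61.2% and the MYC share 57.9% against 17.7%, while the Fra-1 bars have wide intervals that reach down to or near the grey bar.

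All 33 genes with MYC and all 13 genes with Fra-1 also had E2F1, and 0 of 57 genes had MYC or Fra-1 alone. This held for most other genes too, as E2F1 was found at 3545 of 3554 other protein-coding genes with MYC, or 99.7%, and at 2467 of 2649 with Fra-1, or 93.1%. E2F1 alone was found at 15 genes, or 26.3% against 35.9% of other protein-coding genes. MYC with E2F1 was found at 23, or 40.4% against 13.1%. Fra-1 with E2F1 was found at 3 (HNRNPA2B1, HNRNPLL and SRSF9), or 5.26% against 7.67%, and all 3 factors at 10. These 10, or 17.5% against 4.67% of all protein-coding genes, were HNRNPD, HNRNPH1, HNRNPH3, SF3A2, SF3A3, SF3B3, SNRPA, SNRPA1, SNRPD1 and SRSF10. In 8 of them the 3 peaks overlapped in a single stretch of DNA, and in SF3B3 and SRSF10 they did not. The other 6 of the 57 genes, or 10.5% against 37.8%, had no promoter peak.

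All 58 MYC peaks at these promoters and all 13 Fra-1 peaks had their summit inside an E2F1 peak. The nearest E2F1 summit lay at a median of 101 bp from MYC summits and 45.0 bp from Fra-1 summits. A MYC peak overlapped 8 of the 13 Fra-1 peaks, or 61.5%, against 17.1% of 3144 Fra-1 peaks at other promoters. These shares were near the MYC shares of the genes themselves, 57.9% of splicing factor genes and 17.7% of others. At the promoters of other genes, the summit lay inside an E2F1 peak for 97% of 3850 MYC peaks and 76.7% of 3144 Fra-1 peaks, with median distances of 86 bp and 79 bp, so the placement of the MYC peaks was close to that elsewhere, and 13 Fra-1 peaks are too few to place against the other genes.

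Since E2F1 was found nearly everywhere, the MYC share was also taken among genes with an E2F1 promoter peak. There it was 33 of 51 splicing factor genes, or 64.7% (51.0 to 76.4%), against 29.0% of all protein-coding genes with E2F1. Genes with E2F1 were then divided into 4 groups of equal size by E2F1 fold enrichment, since MYC was found more often in other genes the stronger their E2F1 peak. In the group with the highest E2F1 fold enrichment (32.5 to 85.4) MYC was found at 24 of 31 splicing factor genes, or 77.4% (60.2 to 88.6%), and at 56.6% (54.9 to 58.4%) of 3049 other genes. In the next group (22 to 32.5) it was found at 8 of 18, or 44.4% (24.6 to 66.3%), an interval that includes the 32.1% of other genes. The remaining 2 genes lay in the group from 13.4 to 22, HNRNPA3 with a MYC peak and SRSF8 without. Median E2F1 fold enrichment was 40.4 (29.9 and 47.8) in the 33 splicing factor genes with MYC and 31.8 (27.5 and 35.6) in the 18 without. For the same quantity other genes gave 32.0 and 18.4. The share of splicing factor genes with Fra-1 among those with E2F1 was 25.5% (15.5 to 38.9%), an interval that includes the 20.1% of other genes with E2F1.

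**Figure D2:**
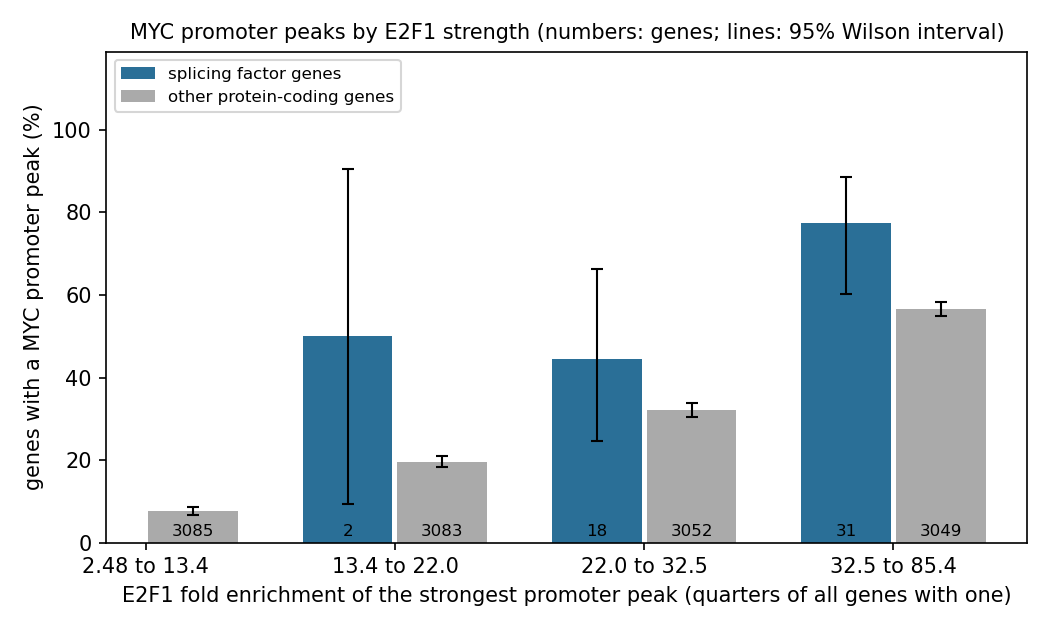
Share of genes (%) with a MYC promoter peak, in 4 groups of equal size by the E2F1 fold enrichment of the strongest promoter peak, for splicing factor genes (blue) and other protein-coding genes (grey), with the number of genes in each bar and lines for the 95% Wilson interval. Of the splicing factor genes 31 lie in the highest group and 0 in the lowest, and MYC was found at 77.4% of those in the highest group against 56.6% of other genes.

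Among the SNRP genes, the highest E2F1 fold enrichments were at SNRPB and SNRPD3, both genes for the Sm ring. SNRPB, which encodes the SmB proteins, had an E2F1 fold enrichment of 74.5 (95% counting interval 64.1 to 86.2) at chr20:2450677-2451716, rank 23 among the 12321 protein-coding genes with an E2F1 promoter peak. SNRPD3, another ring protein, followed with 63.0 (53.5 to 73.8), and the intervals of these genes overlap. Both also had MYC, at 13.3 (9.58 to 17.9) for SNRPB and 11.6 (8.13 to 16.1) for SNRPD3. By E2F1 pileup the order differed, with 107 at SNRPB and 90 at SNRPD3 against 116 at SNRPD2. The local background was 0.449 at SNRPB and 0.444 at SNRPD3, and 2.99 at SNRPD2.

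Of the 8 genes for Sm proteins, 7 had E2F1 (25.8 to 74.5) and 6 had MYC (4.99 to 13.3). No MYC peak was found at SNRPG and SNRPN, and Fra-1 was found at SNRPD1 alone, with 7.58 (4.35 to 12.5). SNRPN encodes a close relative of SmB, is imprinted and is mostly expressed in brain. It had no promoter peak, and the nearest E2F1 summit lay 484 kb from its start sites. The U1 snRNP genes SNRPA and SNRPC both had MYC, at 8.02 (5.62 to 11.2) and 4.99 (3.46 to 7.02). Of the U2 snRNP genes, SNRPA1 had all 3 factors, with 53.3 (45.5 to 62.2) for E2F1, 8.38 (6.0 to 11.4) for MYC and 10.6 (6.81 to 15.8) for Fra-1. Its partner SNRPB2 had E2F1 only, with 25 (20.8 to 29.7).

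All 9 SF3 genes had E2F1. SF3B3, a scaffold subunit of SF3b, had 60.3 (51.3 to 70.4) for E2F1 and 14.9 (10.9 to 19.8) for MYC, both the highest of the family. Its Fra-1 peak, 13.4 (8.60 to 19.9), had the highest fold enrichment of the Fra-1 promoter peaks of these genes. Its pileup was 18, against 37 at HNRNPH1. The summit lay 53621 bp downstream of the canonical TSS, in an exon near the 3′ end. The peak counts as a promoter peak because of a transcript that starts 1136 bp upstream of that summit. By contrast, the peaks of SF3A2 and SF3A3 of the SF3a complex clustered at the TSS. SF3A2 had 41.4 (36 to 47.5) for E2F1, 8.17 (5.85 to 11.1) for MYC and 12.2 (8.48 to 17.0) for Fra-1, with summits 17, 25 and 41 bp upstream of the TSS. SF3A3 had 48.2 (41.1 to 56.2), 10.2 (7.49 to 13.6) and 7.99 (4.86 to 12.5) in the same order. SF3A1, SF3B1, SF3B2 and SF3B4 had E2F1 only, at 27.1 to 37.1. SF3B1, which contacts the branch site, was the highest of these with 37.1 (30.9 to 44.2). SF3B5 and SF3B6 had MYC as well, at 7.47 (4.85 to 11.1) and 7.31 (4.84 to 10.7).

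By fold enrichment the SRSF genes were headed by SRSF7, with 57.8 (50.1 to 66.4) for E2F1 and 14.6 (11.2 to 18.8) for MYC. SRSF1, the founding SR protein, had 42.8 (37.3 to 48.9) and 10.1 (7.86 to 12.8), and SRSF6 had 28.3 (24.4 to 32.6) and 11.2 (8.54 to 14.4). SRSF2, SRSF5 and SRSF10 also had MYC, at 6.48, 6.0 and 6.92. The MYC peak of SRSF5 lay far upstream, at -40050 bp from the canonical TSS, near an alternative start site, whereas its E2F1 summit, with 44.3 (38 to 51.4), lay 78 bp downstream of the canonical TSS. E2F1 without MYC or Fra-1 was found at SRSF3, SRSF4, SRSF8 and SRSF11. The Fra-1 peaks of SRSF9 and SRSF10 had the lowest fold enrichment of the 13, at 4.36 (2.87 to 6.38) and 4.84 (2.84 to 7.81). Their pileups, 20 and 12, were above the 11 of SNRPA and SNRPD1. SRSF12 had no promoter peak, although G and C made up 75.0% of its promoter, and its nearest E2F1 summit lay 23.9 kb away.

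In the HNRNP genes the highest MYC value of all 57 genes was found. HNRNPAB had a MYC fold enrichment of 19.0 (14.6 to 24.4) at chr5:177631256-177631662, rank 43 of 3587 genes with a MYC promoter peak, with its summit 6 bp upstream of the TSS. Its interval overlaps those of SF3B3 and SRSF7, so these are not separated. HNRNPA1, which encodes a repressor of exon inclusion, had 47.8 (41.5 to 54.7) for E2F1 and 11.8 (9.06 to 15.0) for MYC. HNRNPA3 had 21.6 (18.2 to 25.3) and 6.35 (4.13 to 9.47). HNRNPA2B1 had E2F1 at 56.7 (49.0 to 65.1) and the second-strongest Fra-1 peak, 12.3 (8.37 to 17.4), and no MYC promoter peak. HNRNPA0 had E2F1 only.

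The F/H proteins bind runs of G. HNRNPF had 58.5 (49.3 to 68.8) for E2F1 and 13.2 (9.57 to 17.9) for MYC. HNRNPH1 had all 3 factors, with 44.2 for E2F1, 7.10 for MYC and 5.49 for Fra-1, and so did HNRNPH3, with 40.8, 8.58 and 5.60. HNRNPH2, on chromosome X, had E2F1 only, at 26.1 (20.1 to 33.4). HNRNPD, known for binding AU-rich RNA, had all 3 factors, with 36.2 for E2F1, 8.10 for MYC and 6.12 for Fra-1, while its relative HNRNPDL had E2F1 at 40.4 and MYC at 7.54.

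Of the remaining HNRNP genes, HNRNPK, HNRNPL, HNRNPM, HNRNPR and HNRNPUL1 had E2F1 and MYC, with MYC values from 5.67 at HNRNPM to 9.75 at HNRNPK and HNRNPL. HNRNPC, HNRNPU and HNRNPUL2 had E2F1 only, at 35.7, 40.9 and 31.7. HNRNPLL had a Fra-1 peak of 6.70 (4.6 to 9.45) in an intron, 9705 bp downstream of its canonical TSS, and E2F1 at 29.4.

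The 4 HNRNP genes with no promoter peak, HNRNPA1L2, HNRNPA1L3, HNRNPCL1 and HNRNPCL2, are copies of HNRNPA1 and HNRNPC. The nearest E2F1 summit lay 9.77 kb from HNRNPA1L2, 812 kb from HNRNPA1L3, 189 kb from HNRNPCL1 and 465 kb from HNRNPCL2. The authors kept uniquely mapping reads, and whether reads could be placed at these copies was not tested. Without the 4 copies, E2F1 was found at 51 of 53 genes, or 96.2% (87.2 to 99.0%).

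**Figure D3:**
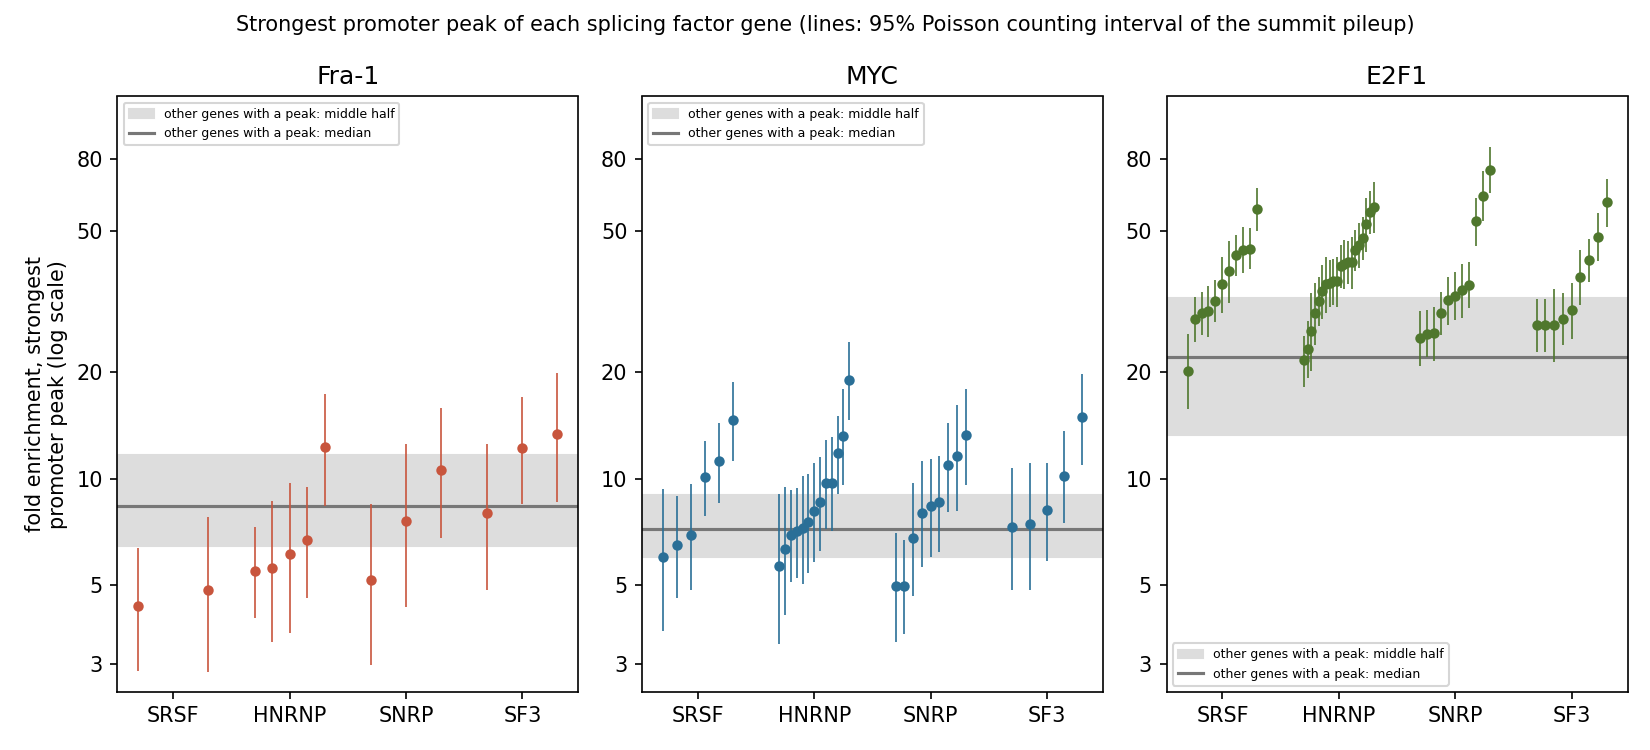
Fold enrichment (log scale) of the strongest promoter peak of each splicing factor gene with a peak of Fra-1, MYC or E2F1, by family, with lines for the 95% Poisson counting interval of the summit pileup. The grey line and band are the median and the quartiles of the other protein-coding genes with a peak, and most E2F1 points lie above the grey median of 22, the Fra-1 points mostly below 8.39.

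Summits gathered close to the TSS. The strongest E2F1 summit lay within 250 bp of the canonical TSS in 39 of 51 splicing factor genes, or 76.5%, against 59.6% of other genes with a peak. For MYC it was 24 of 33, or 72.7%, against 48.7%, which included all 9 SNRP and all 5 SF3 genes with MYC. For Fra-1 it was 6 of 13, or 46.2%, against 17.9%. Fra-1 summits lay upstream of the canonical TSS in 10 of 13 genes, while in other genes 60.3% lay downstream. Measured from the nearest TSS of the gene, the summits of HNRNPA2B1, HNRNPD and SRSF10 lay 130, 65 and 37 bp downstream. That of HNRNPLL, downstream of the canonical TSS, lay at -1582 bp from its nearest one. These 13 genes are too few to read a direction from. E2F1 summits were split evenly, 26 upstream and 25 downstream. Only 2 E2F1 summits lay more than 1000 bp away, at SRSF9 (-26435 bp) and SRSF11 (-15753 bp), and both lay within 250 bp of an alternative TSS.

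**Figure D4:**
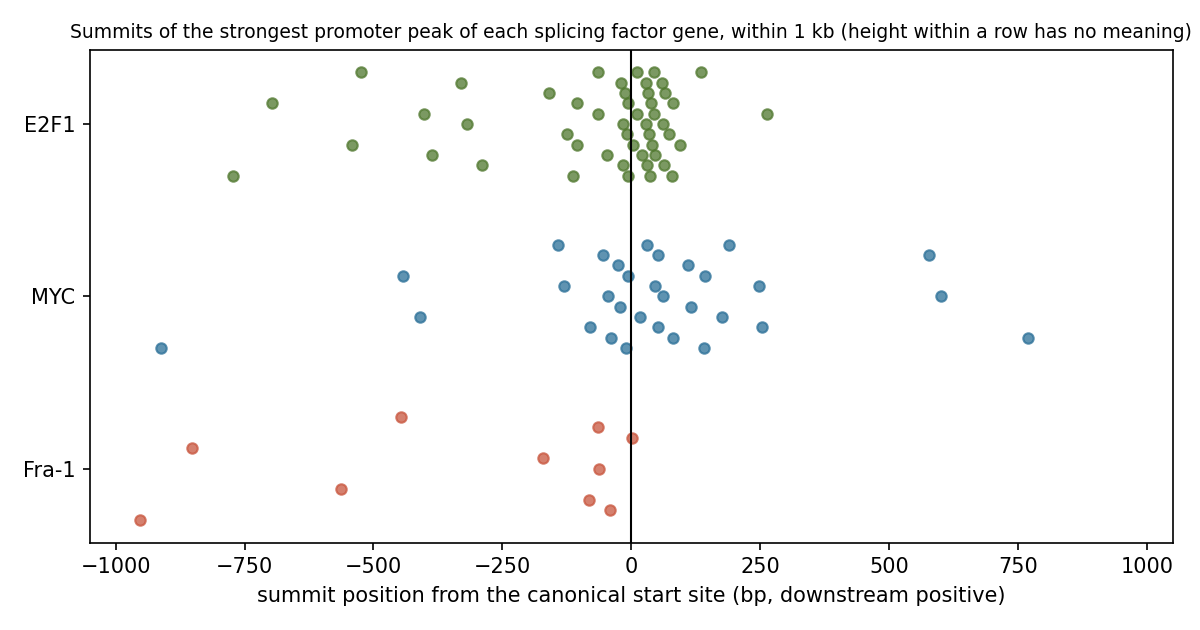
Position of the summit of the strongest promoter peak from the canonical TSS (bp, downstream positive) for splicing factor genes with a peak of each factor, 1 point per gene, limited to summits within 1000 bp (49 of 51 for E2F1, 31 of 33 for MYC and 10 of 13 for Fra-1). E2F1 and MYC summits crowd around the TSS on both sides, and 9 of the 10 Fra-1 summits shown lie upstream of it.

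The promoters were compared in what the rule did not use. In the 250 bp on either side of the canonical TSS, the ratio of observed to expected CpG was 0.898 in the median splicing factor gene and 0.778 in other genes. It was at least 0.6 in 53 of 57 genes, or 93.0%, against 68.7%. The share of G and C was not higher, with medians of 62.5% and 64.7%. A protein-coding gene started on the other strand within 1 kb in 17 of 57 genes, or 29.8%, against 13.8%. At these promoters, among them HNRNPA1 with CBX5, HNRNPA2B1 with CBX3, SNRPD3 with GUCD1 and SRSF7 with GEMIN6, a peak cannot be assigned to one gene of the pair. Among the 40 genes without such a neighbour, a comparison added after seeing the data, E2F1 was found at 85.0% against 57.5%, MYC at 52.5% against 14.9% and Fra-1 at 17.5% (8.75 to 31.9%) against 13.3%. The splicing factor genes also had more annotated start sites, a median of 8 against 5, but their windows covered about the same length, 9.29 kb against 9.27 kb. With 1 canonical TSS per gene the shares were 89.5% against 58% for E2F1, 56.1% against 15.9% for MYC and 17.5% against 7.27% for Fra-1.

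The motif of each factor was searched within 50 bp of all promoter summits. AP-1 (TGACTCA or TGAGTCA) was found at 2 of 13 Fra-1 summits, or 15.4% (4.33 to 42.2%), at SF3A2 and SRSF9, whose sites are shown above, against 49.7% (48.0 to 51.5%) of 3144 Fra-1 summits at other protein-coding promoters. Near a start site the motif was also rarer elsewhere: within 250 bp of an own TSS it was found at 2 of 11 Fra-1 summits of splicing factor genes, or 18.2% (5.14 to 47.7%), and at 41.1% of 1207 others, which the former interval includes. The E-box was found at 4 of 58 MYC summits, or 6.90% (2.71 to 16.4%), against 16.4% (15.3 to 17.6%) of 3850 others. Besides the HNRNPL and HNRNPH3 sites shown above, these were a MYC peak of HNRNPDL and 1 of SNRPA. None of the 5 genes with the strongest MYC peaks (HNRNPAB, SF3B3, SRSF7, SNRPB and HNRNPF) was among them.

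The E2F motif was found at 5 of 122 E2F1 summits, or 4.10% (1.76 to 9.24%), against 2.18% (1.99 to 2.38%) of 22053 others. These were the SNRPB and SRSF1 sites shown above and weaker peaks of HNRNPD, HNRNPM and SRSF7. In the wider stretch of 250 bp on either side of the canonical TSS, the E2F motif was found in 11 of 57 splicing factor genes, or 19.3% (11.1 to 31.3%), and in 6.25% (5.93 to 6.60%) of 19761 other genes. Among genes with an E2F1 promoter peak it was 10 of 51, or 19.6% (11 to 32.5%), against 8.0%. The 11 genes were HNRNPA2B1, HNRNPA3, HNRNPF, HNRNPLL, HNRNPUL1, SF3B1, SNRPA1, SNRPB, SNRPD1, SNRPN and SRSF10, and SNRPN thus held the motif with no E2F1 promoter peak. In the same stretch the E-box was about as frequent as elsewhere, at 10.5% (4.91 to 21.1%) against 11%, and so was AP-1, at 3.51% (0.968 to 11.9%) against 4.83%. A match is a description of the letters and not evidence of a bound site.

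**Figure D5:**
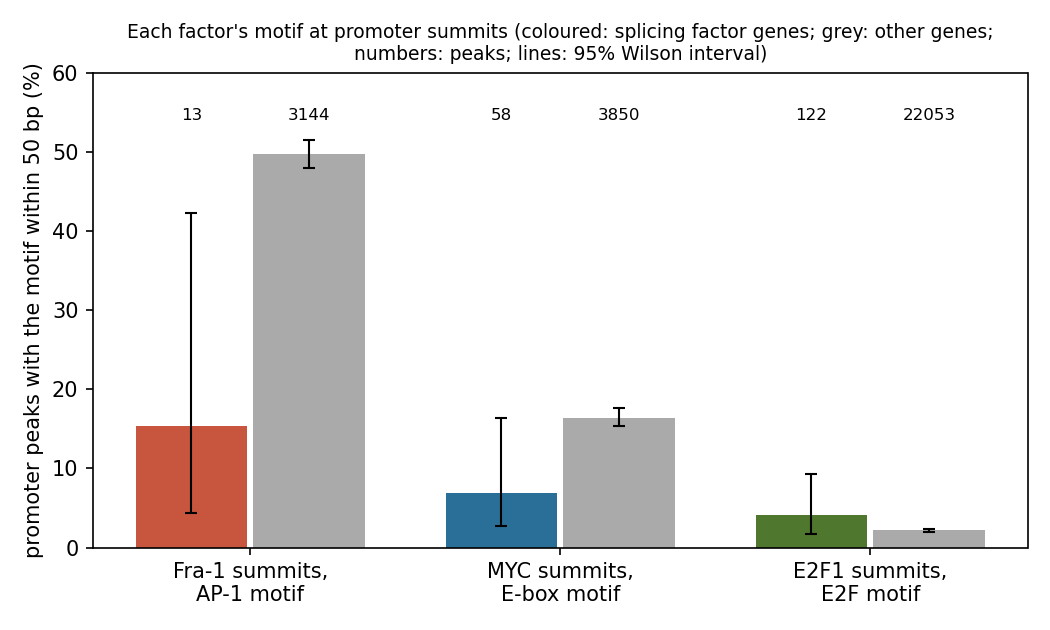
Share of promoter peaks (%) with the factor's own motif within 50 bp of the summit, for AP-1 at Fra-1, the E-box at MYC and the E2F motif at E2F1 summits, at splicing factor genes (coloured) and other protein-coding genes (grey), with the number of peaks above each bar and lines for the 95% Wilson interval. AP-1 was found at 15.4% against 49.7% and the E-box at 6.90% against 16.4%, while the E2F motif was found at few summits in either set.

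Other genes of the splicing machinery were examined in 8 lists with 159 genes, all of which matched the annotation. E2F1 was found at 143 of them, or 89.9% (84.3 to 93.7%), MYC at 67, or 42.1% (34.7 to 49.9%), and Fra-1 at 23, or 14.5% (9.84 to 20.8%). The E2F1 share was close to that of the 57 genes, and the MYC share was lower, with intervals that overlap. The lists differed in MYC. It was found at 11 of 17 genes for snRNP assembly, 10 of 16 for the U4/U6.U5 tri-snRNP and 11 of 18 for SR-related proteins and their kinases. GEMIN6, in the snRNP assembly list, starts beside SRSF7 and has the same MYC (14.6) and E2F1 (57.8) values, so it is not independent of the 57 genes. MYC was found at 7 of 14 genes for U2 and the branch point, 19 of 47 other RNA-binding regulators and 3 of 7 SNRNP genes. It was found at only 5 of 27 genes for catalytic and NTC proteins, or 18.5% (8.18 to 36.7%), near the 17.8% of all genes. E2F1 was found at 26 of these 27, with a median fold enrichment of 24, against 35.4 in the 57 genes and 38.3 in the tri-snRNP list. Of the 13 LSM genes, some of whose proteins form Sm-like rings, 12 had E2F1, with a median fold enrichment of 25.7. MYC was found at 1 of them, or 7.69% (1.37 to 33.3%), an interval that includes the 17.8% of all genes. It was found at 6 of the 8 genes for the Sm ring. Of the LSM genes, 0 had Fra-1, with an interval up to 22.8% that includes the 13.2% of all genes. The highest Fra-1 share of the 8 lists was 7 of 18 SR-related proteins and kinases, or 38.9% (20.3 to 61.4%).

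The MYC share was set beside those of other large complexes. It was 94.8% (87.4 to 98.0%) of 77 genes for cytosolic ribosomal proteins, well above the 57.9% of the splicing factor genes, and 41.0% (27.1 to 56.6%) of 39 proteasome genes, whose interval overlaps that of the splicing factor genes. The ribosomal set left out copies whose symbols add an L, while the 57 genes include 4 HNRNP copies. Without these 4, the MYC share of the splicing factor genes was 62.3% (48.8 to 74.1%). E2F1 was found at 97.4% of the ribosomal and 89.7% of the proteasome genes. Fra-1 was found at 15.6% and 15.4%.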

How the data were processed

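The measurements are peaks of Fra-1, MYC and E2F1 from ChIP-Seq of LM2 cells, 1 library each. The authors trimmed reads (Trimmomatic 0.27), aligned them to masked hg19 (Bowtie 0.12.5), kept unique reads, removed duplicates and called peaks in each library against the shared input (MACS2 2.0.10.20120913, q cutoff 0.01, 1 tag per position). The deposited signal is the pileup at the summit, scaled towards the smaller library. The deposited fold enrichment is a ratio, the pileup over the local input background with 1 added to each, and the authors gave p- and q-values on a −log10 scale. Depth differs between libraries, so fold enrichment is not compared between factors.

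Windows used all start sites of GENCODE release 44 mapped to GRCh37, which has the sequence of hg19. Counting intervals are exact Poisson intervals (95%) of the summit pileup before scaling, with the input background held fixed. Shares have Wilson intervals. Genes of 1 library are not replicates, and no test was made. Named genes were those with the 5 strongest peaks per factor, the strongest of each family, those with Fra-1, with all 3 factors or with none, those shown with sequences and those behind counts of 5 or fewer. The remaining values describe members by role, and roles were assigned after values were seen. Alternatives were stricter q or fold thresholds, equal numbers of peaks, 1 kb windows, 1 canonical TSS, assignment by summit, SNRNP genes added, copies or genes with a divergent neighbour left out, other backgrounds, pileup in place of fold, and wider motif windows. Members and lists were chosen with earlier results of these data known.

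The assignment was checked on simulated data, in which 199 of 199 planted peaks were assigned to their gene. The tools were matplotlib 3.10.9, scipy 1.17.1, pandas 2.3.3 and numpy 2.4.6 under Python 3.11.15.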

Additional observations from a re-analysis of the deposited data

How the results depend on the processing

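Of 172 values recomputed under alternatives, 156 were counted as the same, within their error or 1.5 times, 15 as moved by more and 1 as reversed. These counts include 3 pileup medians, described below, whose unit differs from that of the main values. The MYC shares, differences, medians of fold enrichment, family counts and motif share were not among those that moved. The cut to equal numbers could not move them, because 4867 is the full size of the MYC list. With each list reduced to its 4867 peaks of largest −log10 q, the Fra-1 share fell to 1.75%, its difference from other genes reversed to -1.67 percentage points (main value 9.59), the Fra-1 counts fell to 0 SRSF, 0 HNRNP, 0 SNRP and 1 SF3 gene, genes with all 3 factors fell to 1, the motif share at Fra-1 summits rested on 1 peak (100%), and the E2F1 difference rose to 58.7 points (28.3). The SRSF count for Fra-1, 2, became 1 at a −log10 q of at least 5, 0 at a fold enrichment of at least 5 and 1 with 1 canonical TSS. The E2F1 share was 96.2% without the copies, and its difference was 60.6 points against all annotated genes. Of the genes without a divergent neighbour, 6 of 40, or 15.0% against 4.33% of other genes, had all 3 factors (main values 17.5% against 4.64%). Ranked by pileup, the median E2F1 value was 94.0, a change of unit, against 46.0 in other genes. No paired analysis was possible because there is 1 library per factor. For each factor, a gene without a peak was not detectably bound at the depth of that library. The Fra-1 library was the shallowest of the 3 ChIP libraries, while the MYC library, the deepest, had the fewest peaks. Whether depth accounts for missing peaks was not tested.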

Other observations

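Peaks inside the 57 genes but outside their promoter windows are given here. The windows covered a median of 9.29 kb per gene, and such peaks were not counted in other genes, so their number has no reference. HNRNPDL, a regulator of alternative splicing, had a Fra-1 peak of 17.2 in an exon 6686 bp downstream of its TSS (chr4:83344813-83345034), a fold enrichment above that of every Fra-1 promoter peak of these genes, with an E2F1 peak of 5.13 over it. HNRNPM had a Fra-1 peak of 7.80 in an intron 7081 bp downstream of its canonical TSS, with an E2F1 peak of 6.20 and summits 1 bp apart. SF3B3 had a second Fra-1 peak of 7.03 in an exon 49803 bp downstream of its TSS. MYC had 0 such peaks.

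Motifs of other factors, chosen after seeing the data, were counted in the 250 bp on either side of the canonical TSS, on both strands. The ETS motif CCGGAAG was found in 18 of 57 splicing factor genes, or 31.6% (95% Wilson interval 21.0 to 44.5%), against 16.8% of other genes, and among genes with an E2F1 promoter peak in 35.3% (23.6 to 49.0%) against 23.7%, which that interval includes. The 18 genes were 7 SNRP genes (SNRPA1, SNRPB, SNRPB2, SNRPC, SNRPD1, SNRPE and SNRPG), 6 SF3 genes (SF3A1, SF3A2, SF3A3, SF3B2, SF3B4 and SF3B6), 3 HNRNP genes (HNRNPD, HNRNPF and HNRNPLL) and 2 SRSF genes (SRSF4 and SRSF5). The YY1 motif AAGATGGCG was found in 5 genes (HNRNPL, SF3A1, SF3B2, SF3B6 and SRSF10), or 8.77% (3.81 to 18.9%), against 3.53%. The NRF1 motif GCGCATGCG was found in 3 genes (HNRNPH1, SRSF7 and SRSF10), or 5.26% (1.81 to 14.4%), against 2.91%. CCAAT was found in 52.6% against 43.4%, and CCGCCC in 70.2% against 69.7%.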
